A study of Mus musculus with 16 samples.

Results

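The genes described here are those that decide the fate of pyruvate once it reaches the liver mitochondrion. They are the 4 pyruvate dehydrogenase kinases (Pdk1, Pdk2, Pdk3 and Pdk4), the subunits of the pyruvate dehydrogenase complex that carry out its first steps (Pdha1, Pdhb and Dlat), pyruvate carboxylase (Pcx), and both subunits of the mitochondrial pyruvate carrier (Mpc1 and Mpc2). They were picked by symbol from a table of 50559 gene symbols, and 10 of 10 had enough counts to be tested, among 18335 genes tested. The RNA came from the livers of male C57BL/6J mice, with 16 libraries in 4 groups of 4. Mice were put on their diet at 6 weeks of age, kept on it for 10 weeks and treated over the last 4 weeks. The LFD group had a low-fat diet (its labels call the diet chow), and the other groups had a high-fat diet. LFD, HFD and HFD + Inhib mice were injected with a control siRNA against luciferase (10 mg/kg every 2 weeks), and HFD + siRNA mice with an siRNA against ketohexokinase (KHK, 20 mg/kg every 2 weeks), the first enzyme of fructose breakdown. HFD + Inhib mice were gavaged with the KHK inhibitor PF-06835919 (15 mg/kg), and the other groups with methylcellulose. The siRNA was built to enter hepatocytes, whereas the inhibitor reached the whole body. Some mice were given insulin and others saline shortly before the liver was taken, and the labels do not say which. The labels number the libraries of a group without saying that each came from its own mouse, so p-values measure the spread between these libraries. Totals per library ranged from 24317111 to 35820234 counts (median 29570114).

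Pyruvate from glycolysis crosses the inner mitochondrial membrane through the MPC1-MPC2 carrier. Inside, the pyruvate dehydrogenase complex turns it into acetyl-CoA for oxidation or fat synthesis, while pyruvate carboxylase turns it into oxaloacetate, which feeds the citrate cycle and gluconeogenesis. The kinases switch the complex off by phosphorylating its E1α subunit, encoded by Pdha1, and the phosphatases Pdp1 and Pdp2 switch it back on. Pdk4 is known as the kinase whose transcript rises with fasting and fat oxidation, Pdk2 as the kinase found in most tissues, and Pdk1 as a target of the hypoxia-inducible factor. A transcript level is not the activity of the enzyme, which also depends on phosphorylation.

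Khk itself gave a check of the labels. Its level was 214, 233, 349 and 268 normalized CPM (counts relative to the scaled library total) in the LFD libraries and 250.5, 322, 233 and 250.4 in the HFD libraries. It was 11.8, 9.13, 18.1 and 11.5 CPM in the HFD + siRNA libraries, all below every other library. It was 112, 152, 94.5 and 120.4 CPM in the HFD + Inhib libraries, between the siRNA libraries and the rest. Against HFD, Khk was at a log2 fold change of -4.38 ± 0.23 (SE) with siRNA (edgeR adjusted p = 1.9e-08) and -1.14 ± 0.20 with the inhibitor (edgeR adjusted p = 0.00075). A gene is said to be called, to rise or to fall where its adjusted p from edgeR was under 0.05. The summed level of 8 hepatocyte markers, mostly Alb, was 75456 ± 7602 CPM (SD, n = 4) in LFD, 67975 ± 7140 in HFD, 70190 ± 4754 with siRNA and 44957 ± 1658 with the inhibitor. Against HFD, 3 of the 8 fell with the inhibitor (Alb, Ttr and Apoh) and 0 rose. Of all genes tested, 8.42% were called lower and 9.80% higher there. Between the treated groups 5 were lower with the inhibitor, and Cyp2e1 (0.91) and Ttpa (0.76) were higher, where 16.6% of all genes were called lower and 17.3% higher. Correction for GC content (described below) left 4 lower and Cyp2e1 higher. In bulk liver, fewer cells of a type and less RNA per cell cannot be told apart. The 2 ribosomal RNAs of the mitochondrial genome took 0.0657% to 0.114% of the counts in HFD libraries, 0.0766% to 0.119% in HFD + Inhib libraries and 0.00529% to 0.0453% in HFD + siRNA libraries. In LFD they took 0.00445% to 0.0125% in replicates 1 to 3 and 0.147% in replicate 4, which stood apart from its group. Every comparison of HFD or HFD + Inhib with LFD or HFD + siRNA crosses this difference, except at LFD replicate 4, and its part in their results was not tested. Values without LFD replicate 4 are given where that was seen to end a call.

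Fold changes also followed the GC content of the transcripts in most comparisons. Across 3929 genes, which are not independent replicates, Spearman's rho between log2 fold change and GC content was -0.51 for HFD versus LFD, 0.51 for HFD + siRNA versus HFD and -0.21 for HFD + Inhib versus HFD. It was -0.48 for HFD + Inhib versus HFD + siRNA, -0.51 for HFD + Inhib versus LFD and -0.07 for HFD + siRNA versus LFD. Transcripts of Pcx (57.5% GC) and Pdk2 (56.9%) are richer in GC than those of the other members, which lie between 45.5% (Pdha1) and 53.3% (Mpc2). Each fold change was therefore also computed with offsets that remove the trend with GC content and length, and it is called "GC-corrected" below.

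The promoters of Pdk4, which had the largest fold change among the members in any comparison, and of Mpc1, which had the largest in HFD versus LFD, show what sequence lies at their start. Each is 300 bases from RefSeq, build GRCm38.p6, from 250 before to 50 after the annotated start, written 5′ to 3′ on the strand of the gene. Pdk4 is at chr6:5496229-5496528 on the minus strand and the first Mpc1 start at chr17:8283537-8283836 on the plus strand. Capitals mark the CCAAT box, on either strand.
Pdk4: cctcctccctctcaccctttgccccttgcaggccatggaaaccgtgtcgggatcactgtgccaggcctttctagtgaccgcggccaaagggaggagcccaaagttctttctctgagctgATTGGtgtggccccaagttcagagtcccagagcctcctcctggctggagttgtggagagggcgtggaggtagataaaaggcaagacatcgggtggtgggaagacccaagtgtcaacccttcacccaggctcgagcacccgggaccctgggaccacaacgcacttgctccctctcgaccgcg
Mpc1: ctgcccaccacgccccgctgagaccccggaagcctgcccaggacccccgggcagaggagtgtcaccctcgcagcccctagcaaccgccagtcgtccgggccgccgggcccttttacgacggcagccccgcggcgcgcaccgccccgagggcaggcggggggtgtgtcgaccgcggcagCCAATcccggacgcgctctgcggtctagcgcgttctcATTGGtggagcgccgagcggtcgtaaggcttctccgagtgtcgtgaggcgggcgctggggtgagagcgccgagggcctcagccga
The single CCAAT box of Pdk4 begins at base -131 from the start and lies on the other strand (ATTGG). The Mpc1 boxes begin at -72 and -35. A CCAAT box is found in 37.4% of the 32851 promoters of that table. Both strands of the 2 sequences were also searched for the DR1 element (AGGTCA given again after 1 base of any kind, found in 0.0396% of promoters), its half-site AGGTCA alone (16.3%), the FOXO motif TGTTTAC (3.65%), the core ACGTG of the hypoxia element (19.6%), the E-box CACGTG (7.15%), which contains ACGTG, and TATAAA (13.6%). None of these letters were found in either window, which says nothing of elements further away. A second annotated Mpc1 start (chr17:8284204-8284503) held no CCAAT box and 1 half-site, at -244, and none of the other letters.

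Compared per length of transcript, Pcx was the most abundant member in every group, at 260.4 ± 35.6 CPM per kb (SD, n = 4) in HFD. Next in HFD came Mpc1 at 176 ± 41.0, Mpc2 at 114 ± 13.0, Pdhb at 62.2 ± 8.57 and Pdha1 at 37.3 ± 1.92 CPM per kb. Pdk2 was at 31.8 ± 4.72, Pdk1 at 14.9 ± 1.33, Dlat at 14.1 ± 0.503, Pdk4 at 8.94 ± 5.97 and Pdk3 at 0.516 ± 0.0715 CPM per kb. The HFD libraries of Mpc1 (125 to 215) and Mpc2 (95.6 to 126) overlapped at the edge. Those of Dlat (13.5 to 14.6) lay within the range of Pdk1 (12.9 to 15.9), and both lay within that of Pdk4 (3.95 to 16.7), so that the order of these 3 was not separated. These lengths are medians over the annotated transcripts of a gene, and with the longest transcript Pcx in HFD was at 146 and Mpc1 at 139 CPM per kb.

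**Figure D1:**
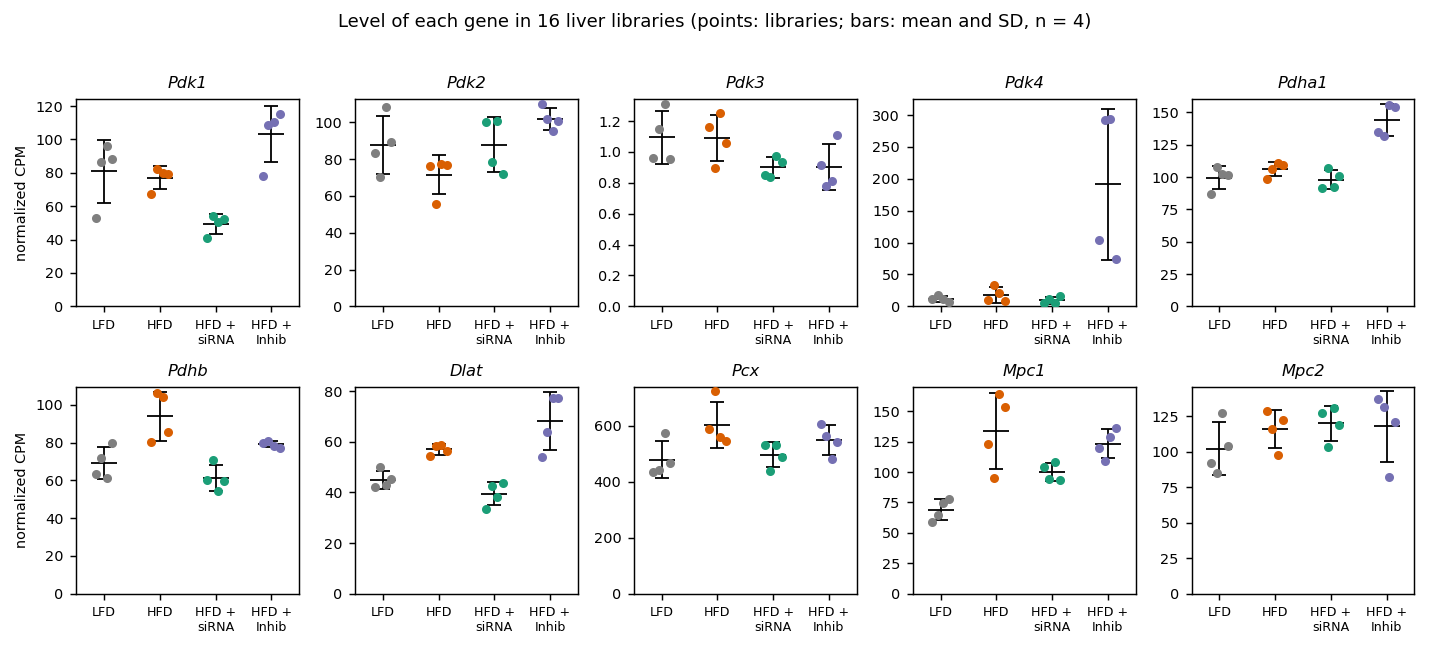
Level of each of the 10 genes in the 16 libraries, in normalized CPM on axes that start at 0 and differ between panels. Points are libraries, and the bars give the mean and SD of 4 libraries. Pdk4 stands at 74.3 to 294 CPM in the HFD + Inhib libraries and at or below 33.9 CPM in all others, and Mpc1 is lower in every LFD library than in any other.

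Among the kinases, Pdk4 rose with the inhibitor and Pdk1 fell with the siRNA. Pdk4 was at 12.3, 17.5, 12.0 and 6.26 CPM in LFD and at 9.31, 33.9, 21.3 and 8.01 CPM in HFD. In HFD + siRNA it was at 4.84, 10.9, 5.19 and 16.6 CPM, so that these 3 groups overlapped. In HFD + Inhib it was at 104, 292, 294 and 74.3 CPM, and the lowest of these libraries stood above all 12 others. Pdk4 rose by 3.39 ± 0.57 (SE) on the log2 scale in HFD + Inhib versus HFD, a 10.5-fold difference (edgeR adjusted p = 0.00053). It was 4.34 ± 0.59 against HFD + siRNA (edgeR adjusted p = 5.2e-05) and 3.99 ± 0.58 against LFD (edgeR adjusted p = 8.5e-05). Between HFD and LFD it was 0.60 ± 0.53 (edgeR adjusted p = 0.466), and between HFD + siRNA and HFD it was -0.95 ± 0.54 (edgeR adjusted p = 0.275), with the individual libraries of HFD spread over 4.24-fold. The approximate 95% interval of the siRNA difference ran from -2.01 to 0.10, so that a fall by about 2.01 on the log2 scale could not be told from none. With 1 library left out, the diet difference ranged from 0.10 (without HFD replicate 2) to 0.86 and the siRNA difference from -0.45 (without HFD replicate 2) to -1.41, none of them called.

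Adipose tissue and muscle are rich in Pdk4, so their markers were read beside it. The summed level of 5 adipocyte markers was 0.952 CPM in LFD, 2.87 in HFD, 7.42 with siRNA and 34.5 with the inhibitor, and it followed 1 gene, Cfd (adipsin), which gave 34.5 of the 34.5 CPM in HFD + Inhib. The adipocyte hormone Adipoq was at 0.0392 CPM and the fat droplet protein Plin1 at 0.00883 CPM in HFD + Inhib, both below their LFD means of 0.177 and 0.161 CPM, and Lep was at 0 in all HFD + Inhib libraries. Within HFD + Inhib, Cfd was at 52.3, 16.9, 43.4 and 25.3 CPM in replicates 1 to 4, and Pdk4 in the same order was at 104, 292, 294 and 74.3 CPM. The summed level of 6 muscle markers was 0.0712 CPM in HFD and 0.103 CPM in HFD + Inhib, and 0 of the 6 had enough counts to be tested. Of these, Ckm, Myh4, Mb, Tnnt3 and Actn3 were at or under 3 counts in every library.

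Pdk1 was at 53.0, 86.2, 96.0 and 88.3 CPM in LFD and at 67.0, 82.5, 79.9 and 79.1 CPM in HFD. It was at 40.8, 54.1, 50.7 and 52.3 CPM in HFD + siRNA, below every HFD library. It was at 78.1, 109, 111 and 115 CPM in HFD + Inhib, above every siRNA library and overlapping HFD with 1 library. On the log2 scale the difference was -0.64 ± 0.16 for HFD + siRNA versus HFD (edgeR adjusted p = 0.0183), and -0.71 ± 0.16 for HFD + siRNA versus LFD (edgeR adjusted p = 0.0123), where the lowest LFD library overlapped. HFD + Inhib was higher than HFD + siRNA by 1.06 ± 0.16 (edgeR adjusted p = 0.00014). Against HFD the inhibitor gave 0.42 ± 0.16, which missed the threshold (edgeR adjusted p = 0.0818), as it did after GC correction (0.38, edgeR adjusted p = 0.0823). It passed without HFD + Inhib replicate 1 (0.53, edgeR adjusted p = 0.034) and in a fit of only these 2 groups (0.41, edgeR adjusted p = 0.044). It also passed with the replicate number as a block (0.41, edgeR adjusted p = 0.0073). The siRNA call against HFD was lost without HFD replicate 3 or without HFD + siRNA replicate 1 (edgeR adjusted p = 0.052 in both).

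Pdk2 was at 76.4, 55.6, 77.2 and 76.9 CPM in HFD and at 109.8, 102, 95.3 and 101 CPM in HFD + Inhib, with no overlap. This was a log2 fold change of 0.51 ± 0.14 (edgeR adjusted p = 0.0185). It missed the threshold without HFD replicate 2, the lowest library (0.41, edgeR adjusted p = 0.063), or without HFD + Inhib replicate 1 (0.47, edgeR adjusted p = 0.052). The LFD libraries, at 83.5, 70.2, 108 and 89.5 CPM, and the HFD + siRNA libraries, at 100.3, 78.5, 101 and 71.8 CPM, overlapped both. After GC correction the inhibitor difference was 0.62 ± 0.13 against HFD (edgeR adjusted p = 0.00321), and Pdk2 also passed the threshold against HFD + siRNA (0.45, edgeR adjusted p = 0.0166) and against LFD (0.50, edgeR adjusted p = 0.00938). Pdk3 was near 1 CPM in all groups, from 0.777 to 1.31 CPM or 20 to 44 counts a library, and it was called in no comparison. At that depth a difference of moderate size could not be seen, since its 95% interval for HFD + Inhib versus HFD ran from -0.64 to 0.12 on the log2 scale.

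**Figure D2:**
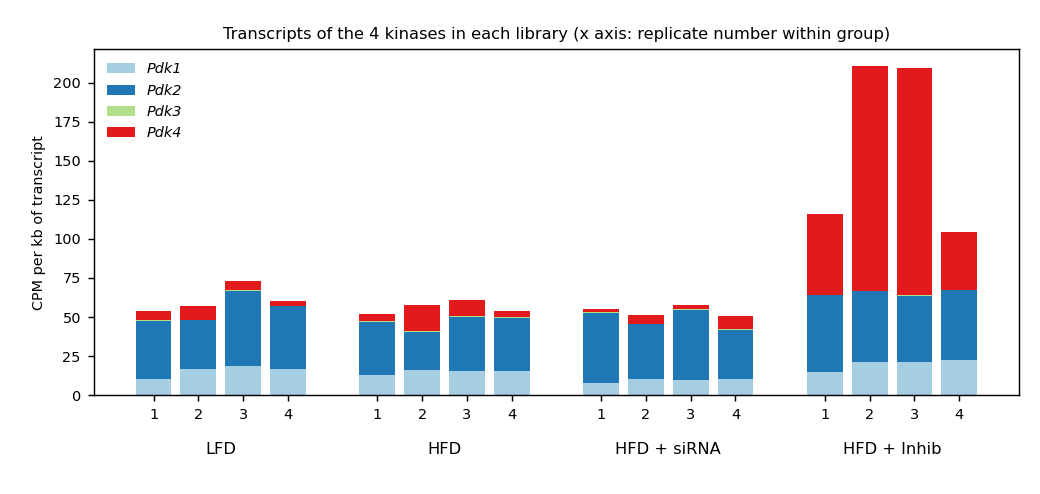
Transcripts of the 4 kinases in each library, in CPM per kb of transcript (median transcript length), stacked by gene over the replicate number within each group. The sum lies between 50.7 and 73.2 in the 12 LFD, HFD and HFD + siRNA libraries and between 104 and 211 in the HFD + Inhib libraries, where Pdk4 (red) takes the largest share of any kinase in 3 of 4 libraries.

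Per length, the make-up of the kinase transcripts changed with the inhibitor. Pdk2 made 63.9% ± 6.24 (SD, n = 4) of the kinase sum in LFD, 57.0% ± 10.2 in HFD, 72.5% ± 8.23 with siRNA and 31.8% ± 12.5 with the inhibitor. Pdk4 made 9.89% ± 4.29, 15.6% ± 9.91 and 8.86% ± 5.67 in the first 3 of these groups and 54.3% ± 17.2 in HFD + Inhib. Its share in the HFD + Inhib libraries was 44.4%, 68.3%, 69.3% and 35.1%, each above the highest share elsewhere, 28.9%. Pdk1 made 25.4% in LFD, 26.5% in HFD, 17.9% with siRNA and 13.6% with the inhibitor, where its own mean level was 103 CPM against 77.1 CPM in HFD. The sum of the kinases was 56.2 ± 3.94 CPM per kb in HFD and 160.0 ± 57.9 in HFD + Inhib. With the longest transcript of each gene, Pdk4 made 42.1% of the sum in HFD + Inhib and Pdk2 40.2%.

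The 3 subunits of the complex were all called higher in HFD + Inhib than in HFD + siRNA, and differed in which other comparisons called them, a difference between subunits that was not tested. These are RNA levels. By Western blot of liver, the paper found no change of PDH protein between the groups. The RNA differences below are therefore not differences in the amount of the complex. Pdha1, the E1α subunit that the kinases phosphorylate, was called in the comparisons with HFD + Inhib and in no other. Its HFD + Inhib libraries, at 135, 132, 156 and 154 CPM, were above all others, while LFD (86.6, 107, 103 and 102), HFD (98.6, 106, 111 and 109.7) and HFD + siRNA (91.5, 107, 92.4 and 101) overlapped. The log2 fold change was 0.44 ± 0.09 against HFD (edgeR adjusted p = 0.00202), 0.56 ± 0.09 against HFD + siRNA (edgeR adjusted p = 0.00017) and 0.53 ± 0.09 against LFD (edgeR adjusted p = 0.00021). GC correction left 0.35 ± 0.06, 0.35 ± 0.06 and 0.32 ± 0.06, all still called.

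Pdhb, the E1β subunit, rose with the diet and fell with the siRNA. It was at 63.6, 71.6, 61.4 and 80.0 CPM in LFD and at 80.2, 106, 104 and 85.9 CPM in HFD, where the closest libraries of the 2 groups nearly met. In HFD + siRNA it was at 60.3, 70.9, 54.4 and 59.4 CPM and in HFD + Inhib at 80.0, 80.8, 78.4 and 77.2 CPM. Its log2 fold change was 0.44 ± 0.11 for HFD versus LFD (edgeR adjusted p = 0.0109) and -0.62 ± 0.11 for HFD + siRNA versus HFD (edgeR adjusted p = 0.00257). HFD + Inhib was above HFD + siRNA by 0.37 ± 0.11 (edgeR adjusted p = 0.0155), a call lost without HFD + siRNA replicate 3 (edgeR adjusted p = 0.052). Against HFD the inhibitor gave -0.25 ± 0.11 (edgeR adjusted p = 0.125), and -0.37 ± 0.09 after GC correction (edgeR adjusted p = 0.00694). Pdhb shares 10.9% of its 50-base words with other genes, mainly the pseudogene Gm6123, and Mpc1 shares 11%, mainly with Mpc1-ps, so their counts are less certain. Both have counts that are not whole numbers in all 16 libraries, as does Pdha1 (0.353% shared).

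Dlat, the E2 subunit that transfers the acetyl group to coenzyme A, was at 42.0, 49.9, 43.0 and 45.2 CPM in LFD and at 54.3, 58.3, 58.8 and 56.5 CPM in HFD. In HFD + siRNA it was at 33.5, 42.5, 38.3 and 43.6 CPM, below every HFD library, and in HFD + Inhib at 54.0, 64.1, 77.3 and 77.5 CPM, which overlapped HFD at 1 library. The siRNA difference against HFD was -0.53 ± 0.11 (edgeR adjusted p = 0.00722), and HFD + Inhib was higher than HFD + siRNA by 0.79 ± 0.11 (edgeR adjusted p = 7.6e-05) and than LFD by 0.60 ± 0.11 (edgeR adjusted p = 0.00067). The diet difference, 0.34 ± 0.11 (edgeR adjusted p = 0.0449), was lost in 7 of 8 fits that left out 1 library, LFD replicate 4 among them (edgeR adjusted p from 0.061 to 0.11). The ratio of Pdha1 to Pdhb per length was 0.771 ± 0.0929 (SD, n = 4) in LFD, 0.606 ± 0.0705 in HFD, 0.853 ± 0.0583 with siRNA and 0.970 ± 0.102 with the inhibitor. It was 0.530 to 0.678 in HFD libraries and 0.799 to 1.06 in the libraries of both treated groups.

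Of the 3 genes of pyruvate entry, Mpc1 was called higher in HFD than in LFD, and Mpc2 and Pcx were not called. Mpc1 was at 58.9, 64.8, 74.8 and 77.5 CPM in LFD and at 123, 94.8, 164 and 153 CPM in HFD, with no overlap. It was at 104, 94.1, 108 and 93.2 CPM with siRNA and at 119, 109, 129 and 136 CPM with the inhibitor, so that every LFD library lay below all 12 libraries on the high-fat diet. Against LFD its log2 fold change was 0.95 ± 0.14 for HFD (edgeR adjusted p = 0.00053), 0.53 ± 0.14 for HFD + siRNA (edgeR adjusted p = 0.0288) and 0.84 ± 0.14 for HFD + Inhib (edgeR adjusted p = 0.0003). Without LFD replicate 4 these were 1.02, 0.58 and 0.90, all still called. The call for HFD + siRNA versus LFD was lost without LFD replicate 1 or 2 or without HFD + siRNA replicate 1, 3 or 4 (edgeR adjusted p from 0.051 to 0.086). HFD + siRNA was at -0.42 ± 0.14 against HFD, which missed the threshold (edgeR adjusted p = 0.0646), while DESeq2 gave -0.43 with an adjusted p of 0.032. Without HFD replicate 2, the lowest HFD library, edgeR also called it (-0.55, edgeR adjusted p = 0.011). Its partner Mpc2 was at 85.0 to 128 CPM in LFD, 98.0 to 129 in HFD, 103 to 131 with siRNA and 82.0 to 137 with the inhibitor, and was called in no comparison. The ratio of Mpc1 to Mpc2 per length was 0.920 ± 0.115 (SD, n = 4) in LFD, 1.58 ± 0.510 in HFD, 1.12 ± 0.0741 with siRNA and 1.48 ± 0.461 with the inhibitor.

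Pcx was at 434, 441, 574 and 465 CPM in LFD, 589, 724, 559 and 544 in HFD, 530.1, 438, 529.6 and 489 with siRNA and 607, 564, 479 and 541 with the inhibitor. No difference passed the threshold, and the HFD + siRNA libraries all lay below the HFD libraries. The diet difference was 0.34 ± 0.12 (edgeR adjusted p = 0.0586), and with DESeq2 its adjusted p was 0.03. Pcx changed its call after GC correction in 4 of 6 comparisons. After GC correction it was 0.51 ± 0.09 higher in HFD than in LFD (edgeR adjusted p = 0.00138), -0.41 ± 0.09 for HFD + siRNA versus HFD (edgeR adjusted p = 0.00849), 0.39 ± 0.09 for HFD + Inhib versus HFD + siRNA (edgeR adjusted p = 0.00334) and 0.49 ± 0.09 for HFD + Inhib versus LFD (edgeR adjusted p = 0.00056). For HFD + Inhib versus HFD it was -0.01 ± 0.09 (edgeR adjusted p = 0.930). The diet difference was also called without the correction when LFD replicate 3 was left out (0.44, edgeR adjusted p = 0.026) or when 10 counts were required in every library (0.35, edgeR adjusted p = 0.042).

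**Figure D3:**
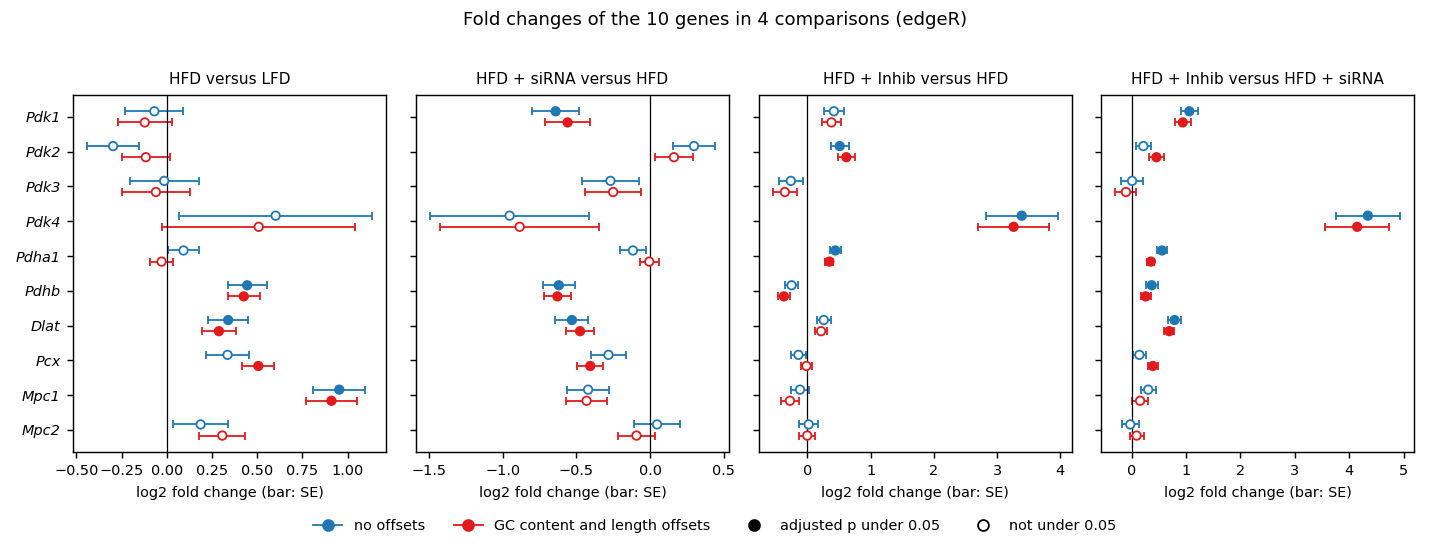
Log2 fold change (x axis, which differs between panels) of each of the 10 genes in 4 comparisons, with SE as the bar, without (blue) and with (red) the offsets for GC content and length. Filled points have an edgeR adjusted p under 0.05. Pcx, open in blue and filled in red in 3 of the 4 panels, Pdhb in HFD + Inhib versus HFD and Pdk2 in HFD + Inhib versus HFD + siRNA change their call, while the 3.39 of Pdk4 with the inhibitor becomes 3.26.

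Over the 10 members, 3 rose in HFD versus LFD (Pdhb, Dlat and Mpc1) and 0 fell, where 18.4% of all genes tested were called (9.58% higher and 8.79% lower). With siRNA against HFD 0 rose and 3 fell (Pdk1, Pdhb and Dlat), where 11.7% of all genes were called (5.20% higher and 6.55% lower). The inhibitor against HFD gave 3 that rose (Pdk2, Pdk4 and Pdha1) and 0 that fell, where 18.2% were called (9.80% higher and 8.42% lower). Between the treated groups 5 were higher with the inhibitor (Pdk1, Pdk4, Pdha1, Pdhb and Dlat) and 0 lower, where 33.9% were called (17.3% higher and 16.6% lower). For HFD + siRNA versus LFD Mpc1 rose and Pdk1 fell, where 8.63% were called (4.75% higher and 3.88% lower). For HFD + Inhib versus LFD 4 rose (Pdk4, Pdha1, Dlat and Mpc1) and 0 fell, where 36.9% were called (18.8% higher and 18.2% lower). The share of members called was above that of all genes in each of the 6 comparisons, by the least in HFD + Inhib versus LFD, and with 10 members this is a description only. In the same order, the libraries of the compared groups did not overlap for 3, 4, 3, 6, 1 and 4 members, and for 20.4%, 20.6%, 23.3%, 32.4%, 12.8% and 31.2% of all genes. After GC correction the members called were 4 higher and 0 lower (15.3% of all genes called), 0 and 4 (9.34%), 3 and 1 (21.4%), 7 and 0 (29.0%), 1 and 1 (12.6%) and 6 and 0 (29.4%). The comparisons with HFD as reference share the HFD libraries. In them the log2 fold change with siRNA and with the inhibitor was -0.64 and 0.42 for Pdk1, -0.95 and 3.39 for Pdk4, -0.12 and 0.44 for Pdha1, and -0.53 and 0.26 for Dlat. It was 0.30 and 0.51 for Pdk2, -0.27 and -0.26 for Pdk3, -0.62 and -0.25 for Pdhb, -0.28 and -0.14 for Pcx, -0.42 and -0.12 for Mpc1, and 0.05 and 0.02 for Mpc2. Among these values, those of Pdk1, Pdhb and Dlat with siRNA and of Pdk2, Pdk4 and Pdha1 with the inhibitor were called.

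In the lists that follow, counts of called genes stand against the shares of all genes just given, and list medians against medians of all genes of -0.01 for HFD versus LFD, 0.02 for siRNA versus HFD and 0.00 for the inhibitor versus HFD. The other parts of the complex and the enzymes that reverse the kinases were read from a list of 6 genes, of which 5 were tested. In HFD + Inhib versus HFD 3 of 5 rose (list median 0.28, against 0.00 for all genes): Pdp2, the phosphatase that reactivates the complex, Dld, its E3 subunit, and Pdhx, which anchors E3. Pdp2 went from 67.3 ± 5.36 CPM (SD, n = 4) to 103 ± 8.08 CPM, a log2 fold change of 0.61 ± 0.12 (edgeR adjusted p = 0.00235). Dld was at 109 ± 7.54 CPM in HFD and 141 ± 2.43 CPM in HFD + Inhib (0.38, edgeR adjusted p = 0.018). Pdhx was at 0.28 (edgeR adjusted p = 0.0496), and after GC correction at 0.15 (edgeR adjusted p = 0.136). With siRNA 0 of 5 were called against HFD. In HFD versus LFD Dld and the phosphatase regulator Pdpr rose, Dld by 0.44 ± 0.10 (edgeR adjusted p = 0.00936), which GC correction reduced to 0.08 (edgeR adjusted p = 0.415). Pdp1 was at 1.89 CPM in HFD and 1.30 CPM in HFD + Inhib and was called in no comparison.

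The complex needs lipoate on Dlat and thiamine pyrophosphate on E1, and pyruvate carboxylase needs biotin. Of 8 tested genes for these cofactors, 5 rose in HFD + Inhib versus HFD (list median 0.28, with 9.80% of all genes called higher), among them Lias and Lipt1, which make and attach lipoate, the thiamine transporter Slc19a2, and Hlcs, which attaches biotin. Hlcs rose by 0.54 ± 0.13 (edgeR adjusted p = 0.00884), and after GC correction 3 of 8 were called, Lias and Lipt1 not among them. With siRNA 1 rose against HFD, Slc19a2, by 0.60 ± 0.10 (edgeR adjusted p = 0.00239). In HFD versus LFD 1 rose, and Slc19a2 and Btd, which recycles biotin, fell (Btd at -0.45, edgeR adjusted p = 0.00724). In HFD + Inhib versus HFD + siRNA 4 rose, with Hlcs at 0.57, and 1 fell.

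Among the 7 genes of the sister complexes, which act on 2-oxoglutarate and on branched-chain keto acids, Ogdh fell in HFD versus LFD (-0.48 ± 0.08, edgeR adjusted p = 0.00121) and rose in HFD + siRNA versus HFD (0.47 ± 0.08, edgeR adjusted p = 0.00239). In HFD versus LFD 2 of 7 rose, Bckdhb and Ppm1k, with 9.58% of all genes called higher, and Ogdh was the 1 that fell. Ppm1k, the phosphatase of the branched-chain complex, rose from 176 ± 33.3 CPM (SD, n = 4) in HFD to 293 ± 68.7 CPM in HFD + Inhib (0.74 ± 0.18, edgeR adjusted p = 0.00778). Its rise in HFD versus LFD was 0.60 ± 0.18 (edgeR adjusted p = 0.0277), which GC correction reduced to 0.20 (edgeR adjusted p = 0.477). That call was also lost in 5 of 8 fits that left out 1 library. In HFD + Inhib versus HFD + siRNA 3 of 7 were higher (Dlst, Bckdhb and Ppm1k), with 17.3% of all genes called higher, and 1 was lower. There Ppm1k was at 0.85 ± 0.18 (edgeR adjusted p = 0.00173), and after GC correction at 0.35 (edgeR adjusted p = 0.15). The lower gene was Bckdk, the kinase of the branched-chain complex (-0.42, edgeR adjusted p = 0.0041), where GC correction left -0.24 (edgeR adjusted p = 0.0669). Against HFD 2 of 7 rose with siRNA (list median 0.14, with 5.20% of all genes called higher) and 3 of 7 with the inhibitor (list median 0.20, against 9.80%), and 0 fell with either.

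Among genes whose enzymes make or exchange pyruvate, Me1, the cytosolic malic enzyme that makes pyruvate and NADPH, differed between the treatments. It was at 266 ± 101 CPM (SD, n = 4) in HFD, 88.1 ± 20.1 CPM with siRNA and 493 ± 99.6 CPM with the inhibitor. It fell by 1.60 on the log2 scale with siRNA (SE 0.22, edgeR adjusted p = 0.000599), rose by 0.89 ± 0.22 with the inhibitor (edgeR adjusted p = 0.00975), and the treated groups differed by 2.48 ± 0.23 (edgeR adjusted p = 1.24e-06). Pklr, the liver pyruvate kinase, was lower than in HFD in both, with 269 ± 58.9 CPM in HFD, 110 ± 15.7 CPM in HFD + siRNA (-1.29, edgeR adjusted p = 0.00277) and 70.7 ± 20.1 CPM in HFD + Inhib (-1.93, edgeR adjusted p = 3.15e-05). Slc16a7, a plasma membrane carrier of pyruvate and lactate, went from 48.7 ± 16.1 CPM in LFD to 122 ± 26.1 CPM in HFD (1.32 ± 0.22, edgeR adjusted p = 0.000967). Gpt2, the mitochondrial alanine transaminase, rose with siRNA by 0.45 ± 0.12 (edgeR adjusted p = 0.0223), a call lost in 6 of 8 fits that left out 1 library (edgeR adjusted p from 0.051 to 0.077). Ldha was lower in HFD + Inhib than in HFD + siRNA by 0.68 on the log2 scale (-0.68, edgeR adjusted p = 0.00113). Of the 10 tested genes of this list, 1 rose and 3 fell with siRNA against HFD, and 3 rose and 1 fell with the inhibitor. After GC correction 1 rose and 2 fell with siRNA, and 2 rose and 2 fell with the inhibitor.

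Downstream, 12 genes handle oxaloacetate and citrate. With siRNA 0 of 12 were called by edgeR against HFD, and 2 were lower after GC correction. With the inhibitor 3 rose and 2 fell. Pck2, the mitochondrial PEP carboxykinase, went from 3.02 ± 0.303 CPM (SD, n = 4) to 2.07 ± 0.186 CPM (-0.55, edgeR adjusted p = 0.0303). In HFD versus LFD citrate synthase, Cs, rose by 0.37 ± 0.11 (edgeR adjusted p = 0.0336), and Pck2 fell (-0.58, edgeR adjusted p = 0.0223). Each of these calls was lost in 5 of 8 fits that left out 1 library, that of Cs without LFD replicate 4 among them (0.38, edgeR adjusted p = 0.05), and that of Pck2 with the inhibitor in 4 of 8. Of 10 genes used as a rough gauge of mitochondrial content, 6 rose and 0 fell in HFD + Inhib versus HFD (list median 0.30), in the comparison in which Pdha1 rose by 0.44. Hspd1, the mitochondrial chaperonin, rose most, from 331 ± 19.6 to 610.2 ± 17.9 CPM (0.88 ± 0.10, edgeR adjusted p = 1.32e-05). With siRNA 1 of 10 rose against HFD, Cox4i1 (0.49 ± 0.12, edgeR adjusted p = 0.015), a value that GC correction reduced to 0.30 (edgeR adjusted p = 0.0337) and a call lost without HFD replicate 3 (edgeR adjusted p = 0.055). Cox4i1 was lower in HFD than in LFD (-0.42, edgeR adjusted p = 0.0224, and -0.21 with edgeR adjusted p = 0.105 after GC correction). Immt was higher in HFD than in LFD (0.26, edgeR adjusted p = 0.0217), but missed the threshold without LFD replicate 4 (0.22, edgeR adjusted p = 0.051) and without HFD replicate 2 or 3.

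**Figure D4:**
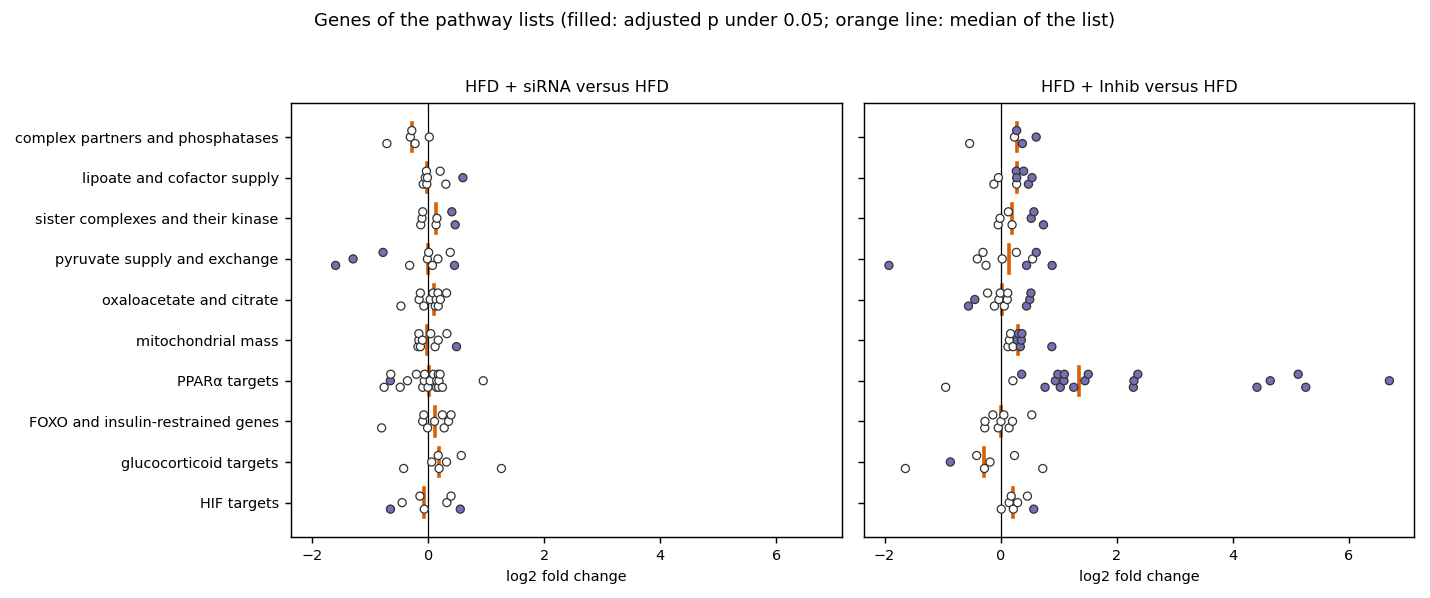
Log2 fold change (x axis) of each tested gene in 10 lists, for HFD + siRNA versus HFD (left) and HFD + Inhib versus HFD (right). Filled points were called by edgeR, and the orange line is the median of the list. The PPARα targets have a median of 1.36 with the inhibitor and 0.01 with siRNA and their farthest point is Ucp3, whose fitted value depends on the near absence of counts in HFD.

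Lists of genes under the known regulators of the kinases were read beside Pdk4 and Pdk1, with the members above left out. Of 20 targets of PPARα, the fatty acid sensor that is known to drive Pdk4, 18 rose and 0 fell in HFD + Inhib versus HFD, with a list median of 1.36 and 0.00 for all genes. Against HFD + siRNA 17 rose. Cyp4a14, a fatty acid hydroxylase, rose by 5.13 (edgeR adjusted p = 3.1e-07). Ucp3 was at 2.14 to 5.79 CPM in HFD + Inhib libraries and at 0 to 0.0770 CPM in HFD libraries. The 2 that were not called were Cpt1a (0.21, edgeR adjusted p = 0.17) and Fgf21 (-0.95, edgeR adjusted p = 0.17). With siRNA 0 rose and 1 fell, Ehhadh (-0.65 ± 0.14, edgeR adjusted p = 0.00842). In HFD versus LFD 8 rose, with Fgf21 going from 1.60 ± 0.992 to 7.63 ± 3.23 CPM (2.26 ± 0.49, edgeR adjusted p = 0.00576), while Pdk4 was not called.

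Lists for 3 other regulators were read against the same shares of all genes called, given above. Of 9 genes that FOXO1 drives or insulin restrains, 0 were called by edgeR with either treatment against HFD (1 was higher with the inhibitor after GC correction). Igfbp1 was lower in HFD than in LFD (46.4 ± 9.49 against 144 ± 135 CPM, log2 fold change -1.64, edgeR adjusted p = 0.0234), a call lost in 4 of 8 fits that left out 1 library, and without LFD replicate 3 the value was -0.73 (edgeR adjusted p = 0.15). Klf15 was lower in HFD + Inhib than in HFD + siRNA (-0.39, edgeR adjusted p = 0.0294), a call lost after GC correction (-0.20, edgeR adjusted p = 0.226) and in 5 of 8 fits that left out 1 library. Of 7 glucocorticoid targets, 1 fell in HFD + Inhib versus HFD, Tsc22d3 (-0.87 ± 0.24, edgeR adjusted p = 0.0177, lost without HFD or HFD + Inhib replicate 2). Mt2 was lower in HFD + Inhib than in HFD + siRNA (0.70 against 5.33 CPM, log2 fold change -2.90, and -2.31 without HFD + siRNA replicate 3), and Fkbp5 was higher in HFD than in LFD (0.89 ± 0.17, edgeR adjusted p = 0.00299). Of 7 tested targets of the hypoxia-inducible factor, Bnip3, a mitophagy receptor, was called in the most comparisons. It was at 80.5 ± 15 CPM (SD, n = 4) in LFD, 111 ± 24.7 in HFD, 70.7 ± 10.1 with siRNA and 165 ± 8.39 with the inhibitor. It fell by 0.65 on the log2 scale with siRNA (-0.65 ± 0.16, edgeR adjusted p = 0.0142) and rose by 0.57 ± 0.16 with the inhibitor (edgeR adjusted p = 0.0168), the latter lost after GC correction (0.41, edgeR adjusted p = 0.0515) or without HFD replicate 2. It also rose in HFD versus LFD (0.46, edgeR adjusted p = 0.0481), where GC correction left 0.33 (edgeR adjusted p = 0.135) and 6 of 8 fits that left out 1 library lost the call, while Pdk1 was at -0.07 (edgeR adjusted p = 0.804). Slc2a1 rose with siRNA (0.55 ± 0.14, edgeR adjusted p = 0.0199), a call lost after GC correction (0.33, edgeR adjusted p = 0.179) and in 4 of 8 fits that left out 1 library. In HFD + Inhib versus HFD + siRNA 1 of 7 was called, Bnip3, and 4 of 7 were higher after GC correction. Ankrd37 was lower in HFD than in LFD (-1.22 ± 0.29, edgeR adjusted p = 0.00864), and the other targets were not called in HFD + Inhib versus HFD.

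The tested genes with the most similar profiles were sought among 8573 genes over 16 libraries, by the root mean square difference of log2 CPM after each gene's mean was subtracted. The nearest to Pdk4 were Fabp4 (0.81), Serinc2 (0.84) and Fbf1 (0.87), beside an SD of 1.91 for Pdk4 itself. Fabp4, a fatty acid carrier of fat cells and macrophages, was at 6.89 CPM in HFD and 67.9 CPM in HFD + Inhib, and the summed level of 8 macrophage markers was 177 ± 14.2 CPM (SD, n = 4) in HFD and 140.2 ± 28.2 CPM in HFD + Inhib. The nearest to Pdk1 were Glrx, Add3 and Tmem170b, at 0.19 to 0.21 against an SD of 0.45. Those nearest to Pdk2 were the respiratory chain subunits Cox5b, Cox8a and Ndufb4, at 0.13 to 0.14 against an SD of 0.27. Pdha1 lay nearest to Dennd6a, Esyt2 and Pdzd8 (0.08 to 0.09, SD 0.25), Pdhb to Adam17, Chd1 and Actr2 (0.10 to 0.12, SD 0.27), Dlat to Hnrnph1, Mtdh and Sh3glb1 (0.12, SD 0.34) and Mpc1 to Slc35a5, Sp4 and Polr3gl (0.16 to 0.17, SD 0.42). These 7 are the members called in any comparison, and none of the 10 was among the 3 nearest of any of them.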

How the data were processed

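As deposited, the expected counts stand in 1 table by gene symbol, unscaled, and 15.1% of values are not whole. The submitters' processing notes name STAR, RSEM and mm39, with no versions; the paper's methods name HTG EdgeSeq, a probe assay, and which of these made the table was not settled. Expected counts were rounded. Genes were kept by edgeR's filterByExpr (minimum count 10, total 15), scaled by TMM, and tested in 1 quasi-likelihood fit of the 16 libraries (dispersion 0.0380) for 6 contrasts, with Benjamini-Hochberg adjustment over 18335 genes and a threshold of 0.05. Levels are CPM of the TMM-scaled totals. GC content and length came from GENCODE M21 transcripts for 16123 of the tested genes (87.9%), and the offsets are splines with 5 degrees of freedom each, fitted per library to genes whose log2 CPM averaged 3 or more. Words of 50 bases were compared between genes. No positions on mm39 are given, since the reference used here is GRCm38.

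The members and gene lists were chosen with earlier results of these data known. Besides the members and Khk, the text names the largest called increase and decrease of each list in the 4 main comparisons, the other called or uncalled genes of a list where they are counted, and the 3 nearest genes of each called member. Some list genes that this rule covers are counted with their list but not reported singly here. Cfd and the marker genes were named after their values were seen. Within groups, chi-square per gene between 24 pairs of libraries was 19.4 at the lowest, so no library was a repeat of another. Alternatives were DESeq2 and its size factors, other filters, only the compared groups, the replicate block, the offsets, leaving out each library, a threshold of 0.01 and the longest transcript. R 4.3.3, edgeR 4.0.16, limma 3.58.1 and DESeq2 1.42.0 were used.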

Additional observations from a re-analysis of the deposited data

Results flagged for a closer look

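Within the 40 groups of 4 libraries (10 members in 4 groups), 1 library stood apart. The level of Pdk2 in HFD replicate 2 was 55.62 CPM, while the other HFD libraries were at 76.4 to 77.19 CPM, so that its gap to the nearest took 0.963 of the whole range, above the 95% critical value of Dixon's test for 4 samples. Chance gives such a gap in about 1 in 20 groups. The same library had the highest Pdk4 (33.9 CPM) and the highest Pcx (724 CPM) of HFD. Without it, Pdk2 was 0.41 higher in HFD + Inhib than in HFD on the log2 scale and missed the threshold (edgeR adjusted p = 0.063). Without it Mpc1 was called in HFD + siRNA versus HFD (-0.55, edgeR adjusted p = 0.011) and Dlat was no longer called in HFD versus LFD (0.33, edgeR adjusted p = 0.084).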

How the results depend on the processing

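Of the 20 calls of members, 19 held under every alternative other than a left-out library or the 0.01 threshold, 15 held with each library left out, and 13 held at 0.01. The exception was Dlat in HFD versus LFD, lost with no filter (edgeR adjusted p = 0.064). Of the 40 member values not called, a call was gained in 5 of 320 fits with a library left out, such as Dlat in HFD + Inhib versus HFD without HFD + Inhib replicate 1 (0.35, edgeR adjusted p = 0.03), and in 26 of 320 fits under the other alternatives. With each library left out, members called ranged from 1 to 2 in HFD + siRNA versus LFD, and all genes called from 2001 to 3691 in HFD versus LFD, 1100 to 1981 in HFD + siRNA versus HFD and 965 to 1456 in HFD + siRNA versus LFD. At 0.01, members called fell to 1 in HFD versus LFD and 0 in HFD + siRNA versus LFD, and all genes called to 1287 (HFD versus LFD), 689 (siRNA versus HFD), 1733 (inhibitor versus HFD), 3711 (inhibitor versus siRNA), 566 (siRNA versus LFD) and 4124 (inhibitor versus LFD). With only the 2 compared groups, 808 genes were called in HFD + siRNA versus LFD. With the longest transcript, Pdk1 made 28.4% of the kinase sum in HFD.

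Taken over all groups, 11 of 24 same-number pairs of libraries had a correlation of deviations over 0.1 (median 0.088 over the 24, against -0.055 for other pairs). Between HFD and HFD + Inhib the same-number pairs were at 0.085, 0.21, 0.49 and 0.35, and the other pairs ranged from -0.37 to 0.36. Whether the libraries of these groups were paired was not tested. With the replicate block Pdk1 was also called in HFD + Inhib versus HFD (0.41, edgeR adjusted p = 0.0073) and versus LFD (0.36, edgeR adjusted p = 0.007), and Mpc1 in HFD + siRNA versus HFD (-0.39, edgeR adjusted p = 0.036). With the block and GC correction together 5 members were called with siRNA and 5 with the inhibitor against HFD, and 7 with the inhibitor against LFD.

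The sign turned for these values, none of them called, and the cause was not tested. Pdk1 in HFD versus LFD gave -0.22 to 0.031 (each library left out). Pdk3 in HFD versus LFD gave -0.085 to 0.094 (each library left out). Pdha1 in HFD versus LFD gave -0.029 (GC correction), -0.028 (block and GC correction). Khk in HFD versus LFD gave 0.0053 (10 counts in every library), 0.0039 (the block), 0.20 (GC correction), 0.22 (block and GC correction), -0.12 to 0.15 (each library left out). Mpc2 in HFD + siRNA versus HFD gave -0.093 (GC correction), -0.090 (block and GC correction), -0.027 to 0.098 (each library left out). Mpc2 in HFD + Inhib versus HFD gave -0.0017 (GC correction), -0.0024 (block and GC correction), -0.063 to 0.16 (each library left out). Pdk3 in HFD + Inhib versus HFD + siRNA gave -0.11 (GC correction), -0.10 (block and GC correction), -0.11 to 0.082 (each library left out). Mpc2 in HFD + Inhib versus HFD + siRNA gave 0.091 (GC correction), 0.088 (block and GC correction), -0.093 to 0.11 (each library left out). Pdk2 in HFD + siRNA versus LFD gave 0.0036 (no filter), 0.0012 (10 counts in every library), 0.0018 (the block), 0.045 (GC correction), 0.049 (block and GC correction), 0.0055 (only the 2 compared groups), -0.11 to 0.10 (each library left out). Pcx in HFD + siRNA versus LFD gave -0.00065 to 0.14 (each library left out).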
